A study of Mus musculus with 4 samples.

Results

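The genes of mitosis and chromosome segregation were examined in progenitors with and without Bcl11a, a zinc finger transcription factor. The set held 40 named genes, chosen by function as mitotic cyclins and kinases, spindle checkpoint and kinetochore components, mitotic kinesins, condensin subunits and cytokinesis factors, with the proliferation markers *Mki67* and *Top2a*. A gene was taken as measured where the array annotation gave a probe set its symbol alone, which held for 39 of the 40 members and for 19938 genes in all. For the remaining member, *Ccnb1*, no expression value was analysed here, and it enters the promoter counts only. Each value is a log2 signal from a one-color expression microarray, so a difference of 1 is a 2-fold difference and levels are compared within a gene only.

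Granulocyte-macrophage progenitors (GMPs) and multipotent progenitors (MPPs) were sorted from bone marrow of fetal liver chimeras. B6.SJL recipients had been irradiated with 1200 rad and given 4000000 fetal liver cells that were wild type (WT, *Bcl11a*+/+) or *Bcl11a*-/-, the latter carrying an allele that lacks the first exon, and marrow was taken 4 weeks after transfer. All 4 groups were therefore donor-derived cells from irradiated recipients. B6.SJL, which the labels give as the genetic background of each, is the strain of the recipients in the study's methods. The strain of the donor fetuses was not given in the sources used here. MPPs were taken as LSK cells without surface CD150, a gate that uses neither Flt3 nor the IL-7 receptor. GMPs and MPPs of a genotype came from the same marrow, so their arrays are not independent. Cells were pooled by donor genotype, the number of mice in a pool and their ages were not given in the sources used here, and each condition was measured on 1 array. No difference below thus has a replicate error or a test. In such bulk samples, fewer dividing cells and less RNA per dividing cell cannot be told apart.

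At the end of interphase the cyclin-dependent kinase CDK1, bound to A- and B-type cyclins, drives the cell into mitosis. Condensin compacts the chromosomes, kinesins and microtubule-bundling proteins build the spindle, and kinetochores tie each chromosome to it. The spindle assembly checkpoint holds back the anaphase-promoting complex (APC/C) until every chromosome is attached, after which the chromosomal passenger complex and cytokinesis factors complete division. Most of these genes are transcribed late in the cell cycle, and many of their promoters are known to carry a cell cycle genes homology region (CHR) and CCAAT boxes, bound by the DREAM and MMB-FOXM1 complexes and by NF-Y. In marrow progenitors, transcripts of such genes are widely used as markers of cycling cells.

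Promoter sequences of 6 members are shown because the first 3 belong to genes with large or population-dependent genotype differences in the comparisons below, *Ccnb2* and *Ube2c* show the typical arrangement of motifs, and *Nuf2*, which had the widest range across the arrays, lacks both motifs. Each runs 5′ to 3′ along the gene's strand, from 110 bases before to 25 bases after the RefSeq start (build GRCm38.p6). Capitals mark the CHR, spelled TTTGAA, or the CCAAT box, spelled CCAAT, on either strand (read as TTCAAA and ATTGG on the reverse strand).
Cdc20 (chr4:118437319-118437453, minus strand): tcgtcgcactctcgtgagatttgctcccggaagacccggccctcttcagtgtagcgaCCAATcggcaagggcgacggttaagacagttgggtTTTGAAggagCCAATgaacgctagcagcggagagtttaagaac
Kif23 (chr9:61946775-61946909, minus strand): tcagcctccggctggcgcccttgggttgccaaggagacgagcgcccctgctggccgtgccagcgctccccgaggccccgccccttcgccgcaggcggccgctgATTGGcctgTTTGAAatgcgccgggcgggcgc
Cdk1 (chr10:69352888-69353022, minus strand): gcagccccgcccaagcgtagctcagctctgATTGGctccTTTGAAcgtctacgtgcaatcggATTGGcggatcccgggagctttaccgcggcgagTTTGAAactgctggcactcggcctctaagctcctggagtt
Ccnb2 (chr9:70421530-70421664, minus strand): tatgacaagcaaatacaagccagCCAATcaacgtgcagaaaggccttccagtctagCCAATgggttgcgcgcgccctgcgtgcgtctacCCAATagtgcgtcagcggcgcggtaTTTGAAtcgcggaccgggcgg
Ube2c (chr2:164769819-164769953, plus strand): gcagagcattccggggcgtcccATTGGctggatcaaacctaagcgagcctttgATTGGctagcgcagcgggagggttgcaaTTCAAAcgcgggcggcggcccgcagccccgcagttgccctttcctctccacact
Nuf2 (chr1:169531440-169531574, minus strand): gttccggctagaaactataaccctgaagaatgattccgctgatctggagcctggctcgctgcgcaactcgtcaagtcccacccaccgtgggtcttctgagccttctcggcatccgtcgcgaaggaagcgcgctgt

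In *Cdc20* the CHR starts at position -18, counted from 1 at the first transcribed base with no position 0, between CCAAT boxes at -53 and -8. *Cdk1* has CHR matches at -71 and -15. Over the full promoter window of 300 bases (250 before the start and 50 after it), 34 of the 40 members were in the RefSeq table, *Ccnb1* among them. The CHR letters stood in 27 of these 34 (79.4%), against 17.3% of the 15614 measured genes with a promoter in the table, and 24 of the 34 (70.6%) held it within 50 bases of the start, against 4.49%. CCAAT stood in 26 (76.5%), against 41.7% of measured genes, and both motifs in 23 (67.6%), against 6.89%. In member promoters, 1 CHR match overlapped a CCAAT match. Over all 27025 genes of the table, whether measured or not, 20.2% held the CHR and 41.1% held CCAAT. The measured members without the CHR letters in this window were *Bub1*, *Mad2l1*, *Nusap1*, *Birc5*, *Cenpe* and *Nuf2*. Letters that match are not binding sites, and no factor's binding was measured.

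**Figure D1:**
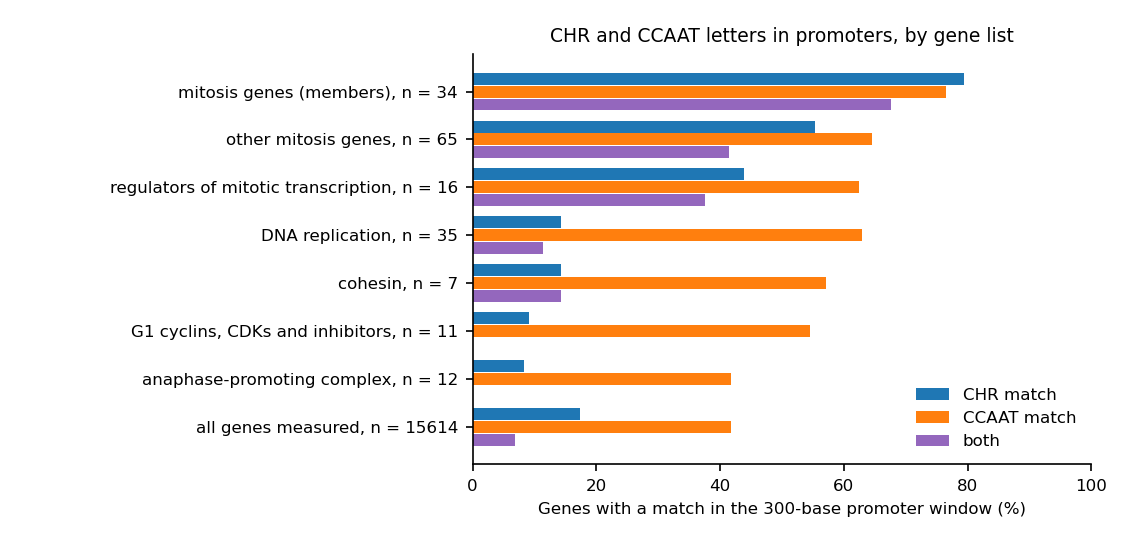
Share of genes (percent, horizontal axis) whose 300-base RefSeq promoter holds the CHR letters, CCAAT or both, for the members, 6 related gene lists and all measured genes. The CHR letters are in a promoter of 79.4% of the members, 55.4% of the other mitosis genes, 14.3% of DNA replication genes and 17.3% of all measured genes.

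The targeted gene was lower in both populations of *Bcl11a*-/- cells. In GMPs *Bcl11a* signal was 8.60 (WT) and 7.77 (*Bcl11a*-/-), a 1.78-fold difference. In MPPs these values were 9.89 and 8.64, a 2.39-fold difference. Markers of the populations mostly went with their labels. Of 14 GMP genes 14, *Fcnb* most, were lower in WT MPPs than in WT GMPs, against 42.8% of all genes. Of 12 measured stem and LSK genes 9, *Meis1* most, were higher, against 11356 of all 19938 genes, while *Slamf1*, *Procr* and *Gata2* were lower. B lineage markers were also higher in WT MPPs, for 11 of 12 genes. The spread of values was not alike on the 4 arrays, with an SD over 28853 probe sets of 2.30 and 2.28 for the WT and *Bcl11a*-/- GMP arrays and 2.21 and 2.10 for the WT and *Bcl11a*-/- MPP arrays. Genes with a mean log2 signal of at least 8, here called bright genes, had a median genotype difference of -0.16 in MPPs, while that of all genes was 0.05, and most members are bright. Counts of members are therefore set beside those of all genes and of the 3109 bright genes. Directions were checked after intensity-dependent (lowess) centring, median centring and a new quantile normalization. Each was applied to the pair of arrays of a comparison, never to all 4 together.

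Most mitotic genes gave a bright signal in all 4 samples. Of the 39 measured members, 34 and 32 had a log2 signal of at least 8 in WT and *Bcl11a*-/- GMPs and 33 and 26 in the corresponding MPPs. The member median was 8.89 in WT and 8.78 in *Bcl11a*-/- GMPs, then 8.67 and 8.30 in the corresponding MPPs. *Bcl11a*-/- MPPs had the lowest of the 4 values for 28 of 39 members (71.8%) and the highest for 0. The same array was lowest for 24.2% of all genes and for 52.2% of the bright genes. WT GMPs had the highest value for 21 members (53.8%) and WT MPPs for 12 (30.8%). WT GMPs were highest for 19.0% of all genes and 33.9% of bright genes, and WT MPPs for 21.9% and 19.0%. *Bcl11a*-/- MPPs were highest for 40.4% of all genes and 21.3% of bright genes. Across the 4 arrays a member's values spanned a median of 0.52, from 0.19 for *Tpx2* to 1.44 for *Nuf2*.

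**Figure D2:**
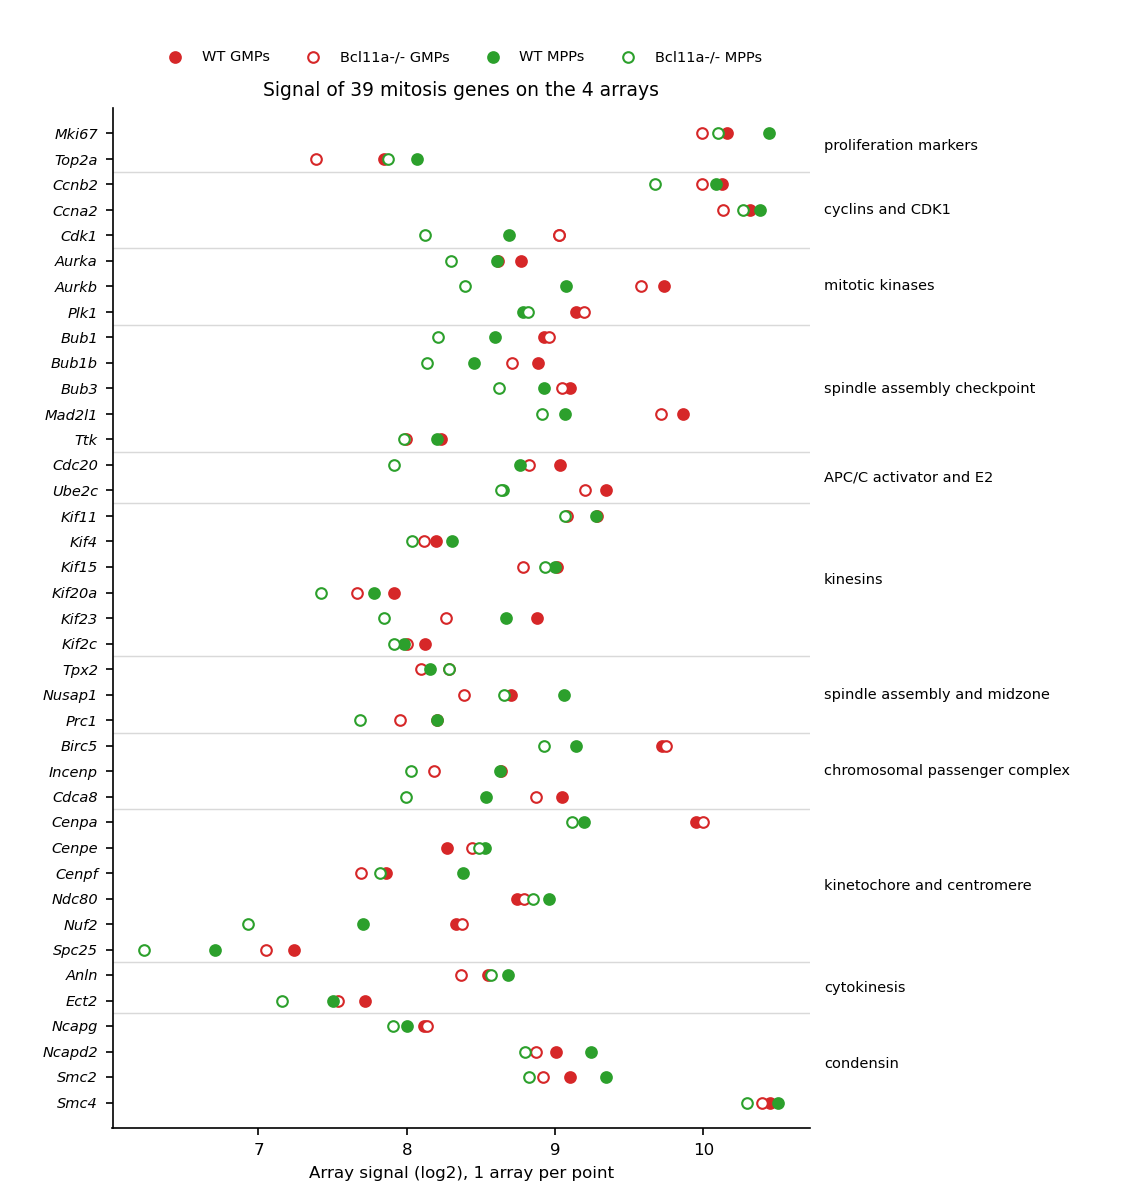
Log2 signal (horizontal axis) of the 39 measured members, 1 line per gene ordered by role, with 1 point per array for WT and *Bcl11a*-/- GMPs and MPPs; coinciding points hide each other. The *Bcl11a*-/- MPP point is the leftmost for 28 genes, and the widest span is that of *Nuf2*, from 6.93 in *Bcl11a*-/- MPPs to 8.37 in *Bcl11a*-/- GMPs.

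To see whether loss of Bcl11a went with altered mitotic gene expression in MPPs, *Bcl11a*-/- and WT MPPs were compared. No member differed by over 2-fold, a size reached by 2.92% of all genes and 7.72% of bright genes. The differences were small and mostly of one sign. As deposited, 37 of 39 members had lower signal in *Bcl11a*-/- MPPs, against 44.2% of all genes and 64.9% of bright genes. After lowess centring 32 members were lower and after quantile normalization 26, but the shares of background genes were not computed under these scalings. The member median was -0.31, below that of either background. It was -0.22 after lowess centring, beside -0.0028 for all genes, and -0.17 after quantile normalization, beside 0.0122 for all genes. The median of bright genes was not computed under these scalings. The sign was the same under every scaling for 26 members that were lower and for *Tpx2*, which was higher, and it turned for the other 12.

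**Figure D3:**
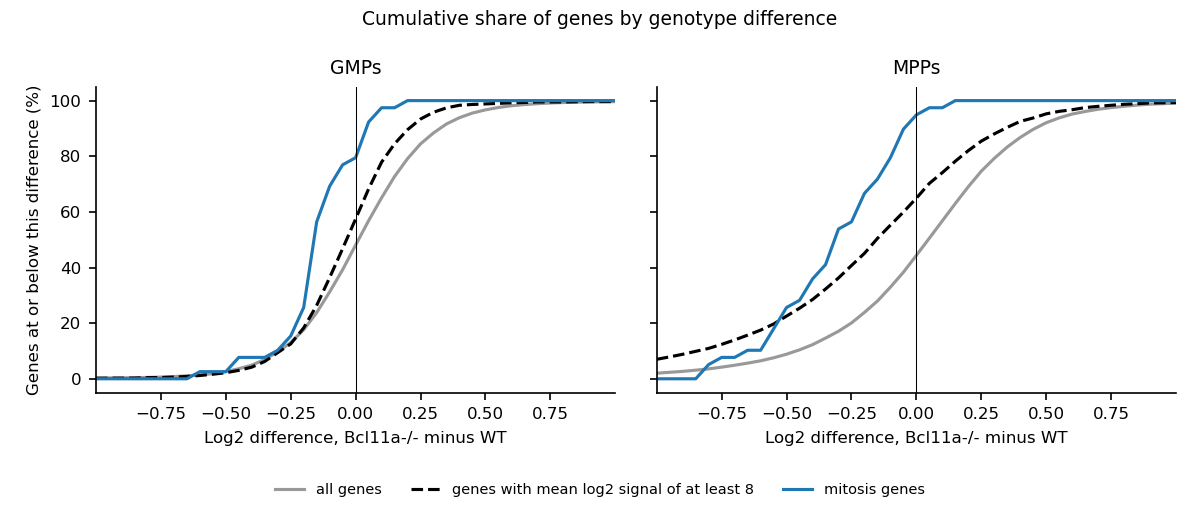
Percent of genes (vertical axis) at or below each log2 difference (horizontal axis, *Bcl11a*-/- minus WT) for the members, all genes and genes with a mean log2 signal of at least 8 in GMPs and in MPPs, as deposited. In MPPs the member curve lies left of both others at its median of -0.31, although 12 members change sign under other scalings.

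*Cdc20*, *Kif23*, *Nuf2*, *Aurkb* and *Incenp* were lower by over 1.5-fold in *Bcl11a*-/- MPPs, and no member was higher by that size. Differences of over 1.5-fold downward were found for 6.86% of all genes and 18.2% of bright genes, and 5 of 39 members is a smaller share than that of bright genes. Each of the 5 kept its lower sign under every scaling, but *Incenp* was under 1.5-fold after lowess centring (-0.53) and quantile normalization (-0.49), and *Aurkb* after the latter (-0.55). After median centring 8 members were lower by over 1.5-fold.

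The APC/C activator *Cdc20* (probe set 10515744), whose protein is the target of the spindle checkpoint, had the largest genotype difference of any member. Its signal was 9.03 in WT and 8.82 in *Bcl11a*-/- GMPs, then 8.77 and 7.92 in the corresponding MPPs. The first 3 arrays were close and the last stood apart, 1.80-fold below WT MPPs. *Ube2c*, the E2 enzyme that passes ubiquitin to APC/C substrates, had no such gap: its signal was 9.34, 9.20, 8.65 and 8.63 in the same order of arrays. It separated MPPs from GMPs, and its MPP genotype difference of -0.02 was positive after lowess centring and quantile normalization.

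CDK1 and its cyclins differed to unequal degrees. *Cdk1* had a signal of 9.03 in WT and 9.02 in *Bcl11a*-/- GMPs, then 8.69 and 8.12 in the corresponding MPPs, a 1.49-fold genotype difference in MPPs and almost none in GMPs, where the value of -0.01 turned positive after lowess centring. Cyclin B2 (*Ccnb2*) had 10.13, 9.99, 10.09 and 9.68 on these arrays. Cyclin A2 (*Ccna2*), which acts in S phase as well as early mitosis, ran from 10.13 to 10.38, and its difference of -0.12 in MPPs turned positive after lowess centring and quantile normalization.

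Of the mitotic kinases, *Aurkb* (probe set 10377405), the Aurora kinase of the chromosomal passenger complex, had the largest difference. Its signal was 9.74 in WT and 9.58 in *Bcl11a*-/- GMPs, then 9.08 and 8.39 in the corresponding MPPs, a 1.60-fold genotype difference in MPPs, and both MPP arrays lay below both GMP arrays. *Aurka*, the Aurora kinase of the spindle poles, had a difference of -0.31. *Plk1*, the polo-like kinase needed for mitotic entry and spindle assembly, had 9.14, 9.20, 8.78 and 8.82 in the same order, with a genotype difference of 0.03 in MPPs that turned negative after median centring.

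The partners of Aurora B in the chromosomal passenger complex were lower in *Bcl11a*-/- MPPs by differing amounts, with the same sign under every scaling. The scaffold *Incenp* (probe set 10465861) had a signal of 8.63 in WT and 8.18 in *Bcl11a*-/- GMPs, then 8.63 and 8.03 in the corresponding MPPs. Both *Bcl11a*-/- arrays lay below both WT arrays, whichever the population. Borealin (*Cdca8*) had a difference of -0.54 in MPPs and -0.18 in GMPs, and survivin (*Birc5*) -0.22 and 0.03. Between WT MPPs and WT GMPs the differences were -0.51 for *Cdca8* and -0.58 for *Birc5*, and -0.01 for *Incenp*, which turned positive after lowess centring and quantile normalization.

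Kinetochore genes differed even within a single complex. *Nuf2* (probe set 10359890), a subunit of the NDC80 complex that binds spindle microtubules, had a signal of 8.33 in WT and 8.37 in *Bcl11a*-/- GMPs, then 7.70 and 6.93 in the corresponding MPPs, a 1.71-fold genotype difference in MPPs. Its direct partner *Ndc80* had 8.74, 8.79, 8.96 and 8.85, a difference of -0.10 in MPPs that turned positive after quantile normalization. *Spc25*, another subunit of that complex, had a difference of -0.47. The centromere gene *Cenpf* had -0.56, with the same sign under every scaling, whereas those of *Cenpa*, the centromeric histone H3 variant, and *Cenpe*, a kinetochore motor, were -0.08 and -0.04 and turned positive after lowess centring and quantile normalization.

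The 5 spindle checkpoint genes lay in a narrow range in the MPP comparison, from -0.38 for *Bub1* to -0.16 for *Mad2l1*, which turned positive after quantile normalization. The checkpoint kinases *Bub1* and *Ttk* had -0.38 and -0.23, and *Bub1b* and *Bub3*, parts of the inhibitor of the APC/C, had -0.32 and -0.30. On the 4 arrays in the above order *Bub1* had 8.92, 8.96, 8.59 and 8.21.

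Among 6 kinesins, *Kif23* (probe set 10594251), the motor of the central spindle that acts in cytokinesis, stood apart. Its signal was 8.88 in WT and 8.27 in *Bcl11a*-/- GMPs, then 8.67 and 7.85 in the corresponding MPPs, so that both *Bcl11a*-/- arrays lay below both WT arrays, by 1.53-fold in GMPs and 1.77-fold in MPPs. The MPP differences of the other 5 ran from -0.36 for *Kif20a*, a motor of the late spindle, to -0.07 for *Kif2c*, a microtubule depolymerase. Those of *Kif2c* and *Kif15* turned positive after quantile normalization, and that of *Kif15* also after lowess centring. *Kif11*, the motor that pushes spindle poles apart, had -0.21 and *Kif4*, a chromosome-bound kinesin, -0.27.

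*Prc1*, which bundles microtubules at the midzone and works with kinesins there, had a difference of -0.51 in MPPs, and the spindle protein *Nusap1* had -0.41. *Tpx2*, the spindle assembly factor that activates Aurora A, had a signal of 8.29 in WT and 8.10 in *Bcl11a*-/- GMPs, then 8.16 and 8.28 in the corresponding MPPs. It was the flattest member, and its difference of 0.12 in MPPs was the highest. Of the cytokinesis genes, *Ect2*, an exchange factor that acts at the division site, had -0.34, and the contractile ring protein *Anln* had -0.11, which turned positive after quantile normalization.

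Condensin subunits *Smc2* and *Ncapd2* had differences of -0.52 and -0.45 in MPPs. *Smc4*, which pairs with SMC2, had -0.21, turning positive after quantile normalization, and *Ncapg* had -0.10. *Smc2* had 9.10 in WT and 8.92 in *Bcl11a*-/- GMPs, then 9.34 and 8.83 in the corresponding MPPs. The proliferation marker *Mki67*, which coats mitotic chromosomes, had 10.16, 9.99, 10.45 and 10.10 in this order, and its MPP difference of -0.35 turned to 0.02 after quantile normalization. *Top2a*, the topoisomerase that untangles sister DNA, was measured by 2 probe sets of its own. The brighter gave 10.22, 10.07, 10.39 and 10.28, while the dimmer gave 5.47, 4.71, 5.74 and 5.46, so that the mean difference of -0.45 in GMPs was only -0.15 on the brighter one, and that of -0.20 in MPPs was -0.11. A further 2 probe sets, annotated to both *Top2a* and *Hibadh* and left out of the mean, had -0.39 and -0.52 in GMPs and -0.35 and -0.33 in MPPs.

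**Figure D4:**
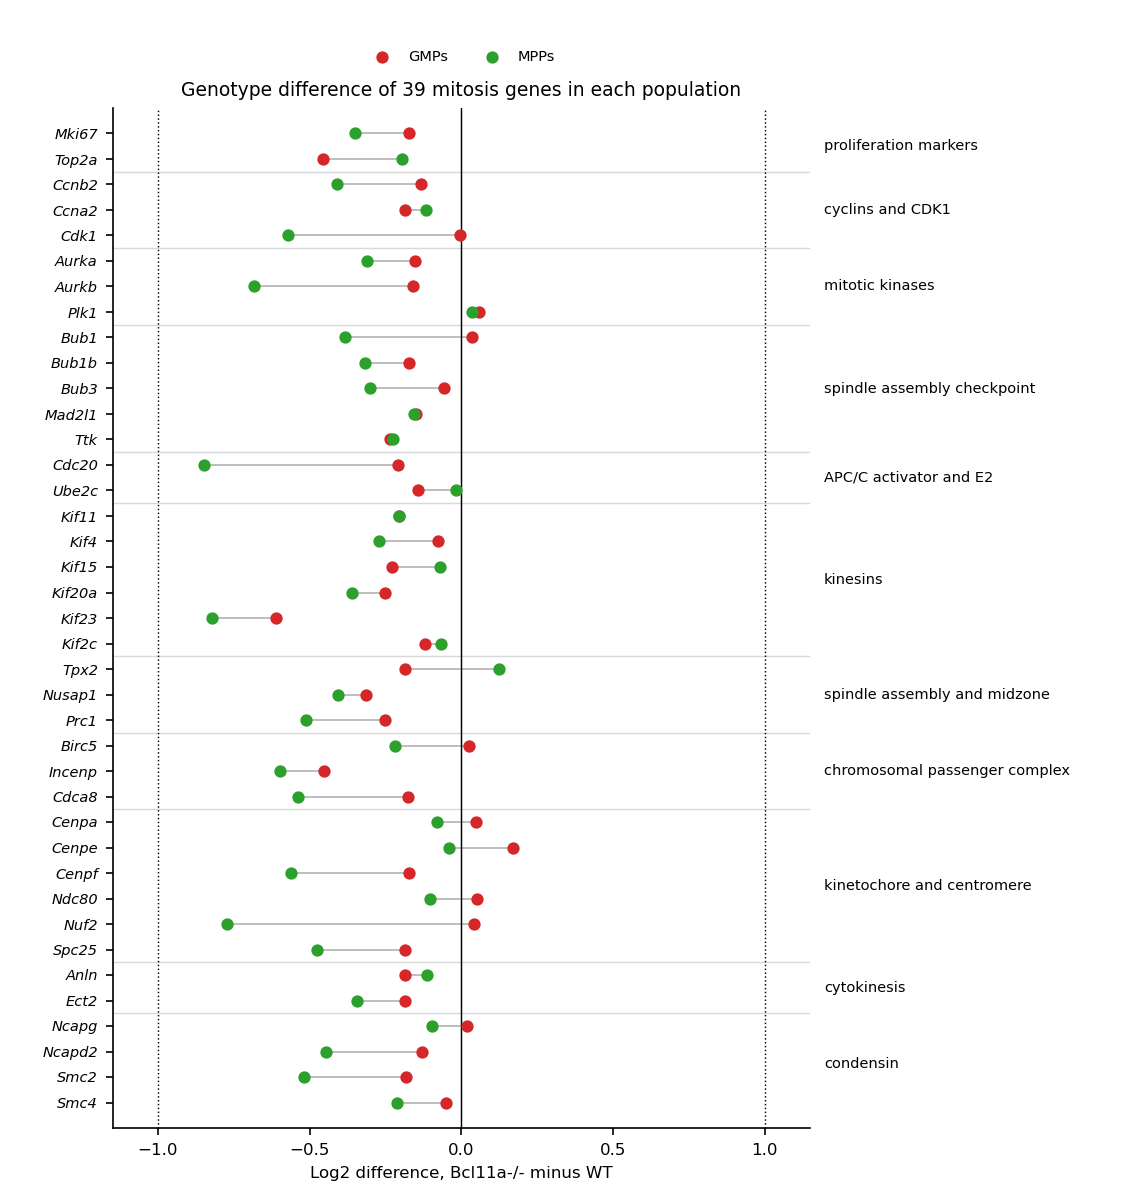
Log2 difference (*Bcl11a*-/- minus WT, horizontal axis) of each of the 39 members in GMPs and in MPPs, as deposited, with 1 array per condition and no error bars. MPP differences run from -0.85 for *Cdc20* to 0.12 for *Tpx2*, and GMP differences from -0.61 for *Kif23* to 0.17 for *Cenpe*; 12 members in MPPs and 1 in GMPs change sign under another scaling.

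The same comparison was made in GMPs. No member differed by over 2-fold, a size reached by 0.642% of all genes and 0.547% of bright genes. *Kif23* alone was lower by over 1.5-fold, against 1.49% of all genes and 1.25% of bright genes, and it was under that size after lowess centring and quantile normalization (both -0.57). Signal was lower in *Bcl11a*-/- GMPs for 31 of 39 members, *Cdk1* being the 1 whose sign turned with the scaling, against 47.8% of all genes and 57.4% of bright genes. The median was -0.17, beside 0.01 for all genes and -0.03 for bright genes. After *Kif23* and *Top2a*, the lowest differences were -0.45 for *Incenp* and -0.31 for *Nusap1*. The 8 members with higher signal were *Plk1*, *Bub1*, *Birc5*, *Cenpa*, *Cenpe*, *Ndc80*, *Nuf2* and *Ncapg*, each with the same sign under every scaling. Lowess centring and quantile normalization raised all 8, and median centring shifted each by only -0.0098, so their kept signs say little. The highest was *Cenpe*, at 0.17 as deposited and 0.22 after quantile normalization. Of 6 kinetochore and centromere genes 4 were higher, and of 5 checkpoint genes 1.

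The genotype difference was lower in MPPs than in GMPs for 31 of 39 members, with a median of -0.16 for the MPP difference minus the GMP difference. For all genes the share was 48.6% and the median 0.01, and for bright genes 61.5% and -0.12. After lowess centring 28 members were lower with a median of -0.12, and after quantile normalization 24 with a median of -0.09. Here the GMP pair and the MPP pair of arrays were each scaled alone. The share and median of bright genes were not computed under these scalings. The lowest values belonged to *Nuf2* (-0.82), *Cdc20* (-0.64), *Cdk1* (-0.57) and *Aurkb* (-0.52), and the highest to *Tpx2* (0.31). Members with a CHR in the promoter had a median genotype difference of -0.31 in MPPs (27 genes) and those without -0.30 (6 genes). In GMPs these medians were -0.17 and 0.03. With 6 genes in the smaller group, these medians are descriptions.

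The 2 WT populations were then compared with each other, on arrays that the genotype comparisons also used. No member differed by over 2-fold between WT MPPs and WT GMPs, whereas 4.14% of all genes and 9.59% of bright genes did. Lower signal by over 1.5-fold in WT MPPs was found for *Mad2l1* (-0.80), *Cenpa* (-0.75), *Ube2c* (-0.69), *Aurkb* (-0.66) and *Nuf2* (-0.63), against 7.97% of all genes and 19.8% of bright genes. Past that size, 2 of the 5 remained after lowess centring, *Mad2l1* and *Cenpa*, and 0 after quantile normalization, where their differences ran from -0.58 for *Mad2l1* to -0.45 for *Aurkb*. The inhibitor of CDC20, *Mad2l1*, had 9.86 in WT and 9.72 in *Bcl11a*-/- GMPs, then 9.07 and 8.91 in the corresponding MPPs. *Cenpa* had 9.95, 10.00, 9.19 and 9.11. For both genes the 2 MPP arrays lay below the 2 GMP arrays, and the genotypes differed by less than the populations.

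Other members had higher signal in WT MPPs. *Cenpf* (0.52), *Nusap1* (0.36), *Mki67* (0.29) and *Cenpe* (0.26) had the highest of these differences, and *Cenpf* after lowess centring (0.60) and both *Cenpf* (0.65) and *Mki67* (0.59) after quantile normalization were over 1.5-fold. *Cenpf* had 7.86 in WT and 7.69 in *Bcl11a*-/- GMPs, then 8.38 and 7.82 in the corresponding MPPs, so that WT MPPs alone stood out. As deposited, 27 members were lower and 12 higher in WT MPPs, of which 17 and 11 kept that sign under every scaling. Of all genes 42.8% were lower, and of bright genes 61.9%. The member median was -0.13, or 0.01 after quantile normalization.

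Between the *Bcl11a*-/- populations, which share arrays with the above, 2 members were lower by over 2-fold in MPPs, *Nuf2* (-1.44, 2.72-fold) and *Aurkb* (-1.18, 2.27-fold). *Aurkb* was under 2-fold after quantile normalization (-0.90), and after median centring *Cdk1* and *Cdc20* also passed 2-fold (both -1.01). Among all genes 8.18% passed 2-fold in either direction and 5.82% were lower by that size, and among bright genes 22.5% and 20.0%. Lower by over 1.5-fold were 10 members, against 11.8% of all genes and 33.7% of bright genes, and 6 after quantile normalization, when 3 were higher by that size. As deposited 29 members were lower and 10 higher, of which 20 and 8 kept that sign under every scaling, against 40.4% of all genes and 65.2% of bright genes that were lower. The median was -0.24, beside 0.10 for all genes and -0.26 for bright genes, and lowess or median centring moved the median of all genes by -0.11. *Top2a* (0.48) had the highest difference, and *Cdc20* and *Cdk1* had -0.91 and -0.90.

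Related lists were set beside the members. Of 78 other mitosis genes 75 were measured, with a median genotype difference of -0.12 in GMPs and -0.19 in MPPs. In MPPs 55 of 75 were lower, against the above 44.2% of all genes and 64.9% of bright genes. After lowess centring 52 were lower with a median of -0.16, and after quantile normalization 48 with a median of -0.12. Over 2-fold lower in *Bcl11a*-/- MPPs were *Ube2s*, the E2 enzyme that extends ubiquitin chains on APC/C substrates, and *Pmf1*, a subunit of the MIS12 kinetochore complex. These are 2 of 75, against 2.02% of all genes and 7.01% of bright genes lower by that size. *Ube2s* had a signal of 9.77 in WT and 9.78 in *Bcl11a*-/- GMPs, then 9.21 and 7.83 in the corresponding MPPs. *Pmf1* had 9.22, 9.12, 8.13 and 7.12. Like *Cdc20*, *Ube2s* stood apart on the *Bcl11a*-/- MPP array. In GMPs none of these 75 passed 2-fold, and the largest differences were those of *Cenpl* (-0.66) and *Depdc1a* (-0.46).

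The 13 subunits of the APC/C itself had medians of -0.17 in GMPs and -0.28 in MPPs. The latter was -0.23 after lowess centring and -0.19 after quantile normalization. None passed 2-fold, and the catalytic core subunit *Anapc2* (-0.80) and *Anapc7* (-0.68) had the largest differences in MPPs. In GMPs these were *Anapc4* (-0.39) and *Anapc7* (-0.32). DNA replication genes, of which 44 of 45 were measured, had medians of -0.09 in GMPs and -0.31 in MPPs, the latter equal to the members' as deposited. In *Bcl11a*-/- MPPs 39 of 44 were lower, against the above 44.2% of all genes and 64.9% of bright genes. After lowess centring 36 were lower with a median of -0.25, and after quantile normalization 28 with a median of -0.16. With the brightest probe set the median was -0.24, while that of the members stayed at -0.31. The largest differences in MPPs were those of *Dut* (-0.84), which clears dUTP, and the fork protection gene *Tipin* (-0.79). In GMPs they were those of *Rfc3* (-0.51) and *Rrm2* (-0.35).

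The remaining lists had MPP medians nearer 0 than that of the members. Cohesin genes had medians of -0.02 in GMPs and -0.07 in MPPs, regulators of mitotic transcription -0.09 and -0.06, and G1 cyclins, CDKs and inhibitors 0.03 and -0.02, and all 3 MPP medians, like the GMP median of cohesin, were above 0 after lowess centring and quantile normalization. In MPPs the largest differences were *Esco2* (-0.48) and *Wapl* (0.36) for cohesin and *Ccnd1* (-0.72) and *Ccnd2* (-0.68) for G1. Of the regulators, *Mybl2* (-0.59) and *Foxm1* (-0.58), which drive late cell cycle genes, had the largest. *Foxm1* had 8.24 in WT and 8.17 in *Bcl11a*-/- GMPs, then 8.27 and 7.70 in the corresponding MPPs, again with the last array apart. In GMPs the largest were *Lin9* (-0.51) and *Nfya* (0.47) of the regulators, *Stag2* (-0.27) and *Nipbl* (-0.21) of cohesin, and the CDK inhibitors *Cdkn1c* (0.36) and *Cdkn1b* (0.36) of the G1 list.

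Between the WT populations, 3 of the 75 other mitosis genes were over 2-fold lower in MPPs, *Pbk* (-1.28), a mitotic kinase, the condensin II subunit *Ncaph2* (-1.22) and *Pmf1* (-1.08). Of the 44 DNA replication genes 2 were, the ribonucleotide reductase subunit *Rrm2* (-1.52) and *Gins1* (-1.08), part of the replicative helicase. Of all genes 2.8% were lower by that size, and of bright genes 8.3%. In the other 4 lists, where none passed 2-fold, the largest differences were *Anapc2* (-0.86) and *Anapc11* (-0.44), *Nipbl* (0.40) and *Pds5b* (0.36) of cohesin, *Lin9* (0.66) and *Lin54* (0.51) of the regulators, and *Ccnd1* (0.96) and *Ccnd2* (0.84) of the G1 list.

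Between the *Bcl11a*-/- populations 5 of 75 other mitosis genes were lower in MPPs by over 2-fold, *Pmf1* (-2.00), *Ube2s* (-1.95), *Pbk* (-1.76), *Cks1b* (-1.57) and *Shcbp1* (-1.04), against the above 5.82% of all genes and 20.0% of bright genes. So were 9 of 44 DNA replication genes, *Gins1* (-1.56), *Dut* (-1.56), *Gins2* (-1.33), *Rrm2* (-1.24), *Rfc2* (-1.21), *Tk1* (-1.20), *Tyms* (-1.11), *Gmnn* (-1.09) and *Mcm5* (-1.08), a share near that of bright genes. *Anapc2* (-1.38), *Anapc11* (-1.20), *Mybl2* (-1.31) and *Cdk4* (-1.05) were also lower by that size. The next largest of the regulators and the G1 list were *Lin9* (0.84) and *Cdkn2d* (-0.81), and the largest of cohesin were *Nipbl* (0.66) and *Pds5b* (0.61).

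**Figure D5:**
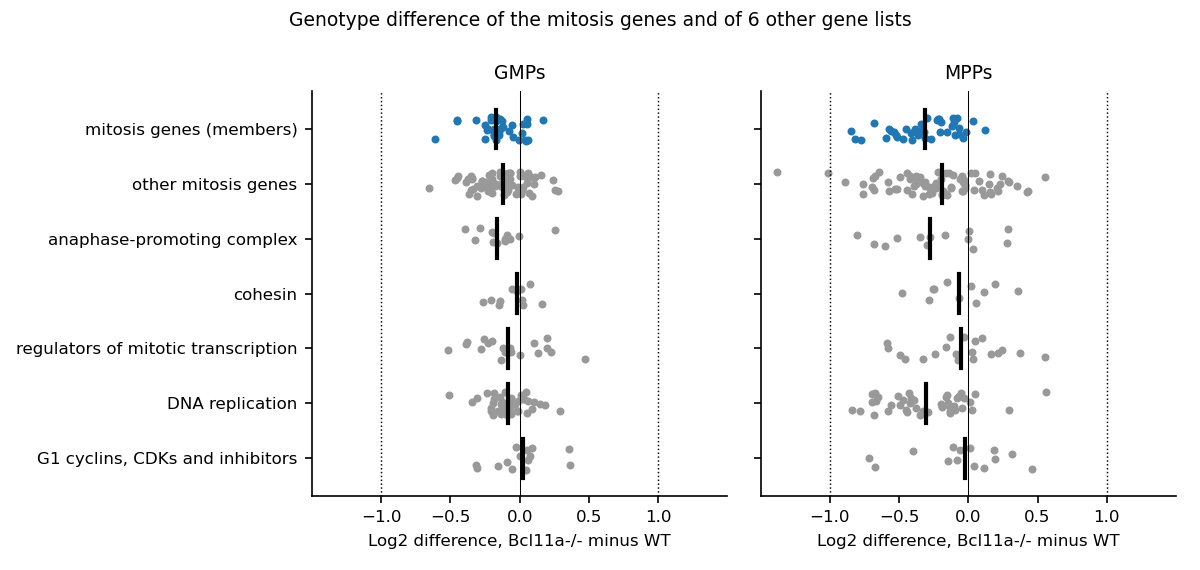
Log2 difference (*Bcl11a*-/- minus WT, horizontal axis) in GMPs and in MPPs, as deposited, with 1 point per gene for the members (blue) and 6 related lists (gray), a black bar at each list's median and dotted lines at 2-fold. The MPP median of DNA replication genes (-0.31) lies at that of the members (-0.31), and those of cohesin, mitotic regulators and G1 genes are above 0 after lowess centring or quantile normalization.

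Markers of other cell types differed between the same arrays, and different cells and different expression within the cells cannot be told apart. B lineage markers were lower by over 2-fold in *Bcl11a*-/- MPPs for 12 of 12 genes, with a log2 of the summed signal of 12.20 (WT) and 9.13 (*Bcl11a*-/-), and 12 of 12 were lower in *Bcl11a*-/- GMPs (10.19 and 9.23). Of all genes 2.02% were lower by over 2-fold in *Bcl11a*-/- MPPs, and 47.8% were lower in *Bcl11a*-/- GMPs. Stem and LSK markers were higher for 12 of 12 genes in *Bcl11a*-/- MPPs (11.61 and 12.05), against 11092 of all 19938 genes. Of 14 GMP markers 5 were lower by over 2-fold there (13.82 and 12.77), and 5 others were higher, none by over 2-fold. Erythroid markers were higher by over 2-fold for 8 of 13 genes in *Bcl11a*-/- GMPs (11.50 and 13.21) and for 1 of 13 in *Bcl11a*-/- MPPs (12.83 and 13.33). Among all 19938 genes 72 were higher by that size in GMPs and 181 in MPPs. The summed signal in WT and *Bcl11a*-/- MPPs was 8.77 and 9.32 for megakaryocyte genes, 11.58 and 11.14 for mast cell, basophil and eosinophil genes, 14.57 and 14.74 for late neutrophil genes and 7.02 and 7.11 for T and NK genes. In GMPs of the 2 genotypes these sums were 9.29 and 9.52, 12.58 and 11.90, 14.99 and 14.81, and 6.78 and 6.94 in the same order. Such sums follow the brightest genes. In *Bcl11a*-/- MPPs 4 of 8 mast cell, basophil and eosinophil genes were higher, *Epx* (0.92) most, while *Prg2* had -1.30. Late neutrophil genes were higher for 7 of 9, *Mmp8* (1.54) and *Chil3* (1.53) by over 2-fold. Megakaryocyte genes were higher for 7 of 7 and T and NK genes for 3 of 5, against the above 11092 of all 19938 genes. A log2 signal has no true 0, so no marker can be called absent. The part of these cells in the mitotic values was not tested.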

How the data were processed

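Gene expression was measured in 4 samples, WT and *Bcl11a*-/- GMPs and MPPs from fetal liver chimeras, each on 1 one-color array. The authors normalized the arrays by RMA with quantile normalization in ArrayStar, with no version stated in the sources used here, and deposited log2 values. The 4 array medians were 5.50, 5.54, 5.63 and 5.70 in the order WT GMP, *Bcl11a*-/- GMP, WT MPP, *Bcl11a*-/- MPP. The deposited arrays thus do not share 1 distribution, as fully quantile-normalized arrays would. A new quantile normalization was tried on the pair of arrays of each comparison, which does not put all 4 on 1 distribution. Depth has no meaning for arrays, and their number limits the precision.

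Of 30177 probe sets, 1324 were set aside as controls by their ID numbers, 0 of them annotated. Of the 28853 kept, 21789 had 1 symbol, 1621 several and 5443 none, and the last 2 kinds were not named. Entrez IDs matched 21698 of the symbols to RefSeq and changed 0, 91 had no match, and 5 listed symbols were updated through synonyms. Probe sets of 1 gene were averaged. Log2 differences were computed per gene in Python 3.11.15 with pandas 2.3.3, numpy 2.4.6, scipy 1.17.1, statsmodels 0.14.6 (lowess, span 0.3) and matplotlib 3.10.9. The calculation was tested on simulated data. Thresholds were 2-fold, the limit the study used, and 1.5-fold.

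The members and lists were chosen with earlier results of these data known. All members were named, and of each related list the genes over 2-fold or, where there were fewer than 2, the 2 with the largest absolute difference. No test was made, since each group had 1 array. Alternatives were a floor at log2 5, a minimum signal of 6, lowess and median centring, a new quantile normalization, the brightest probe set, each probe set alone and the 1.5-fold threshold. Motifs were searched on both strands of RefSeq promoters (GRCm38.p6), and 6 members without an entry there were left out.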

Additional observations from a re-analysis of the deposited data

Results flagged for a closer look

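For 8 members the genotype difference had opposite signs in GMPs and MPPs, each on 1 array per condition, and the difference between the populations was not tested. The share of all genes or of bright genes with opposite signs was not counted, so this count has no background beside it. In 7 of them *Bcl11a*-/- cells had higher signal in GMPs and lower signal in MPPs, and the MPP difference minus the GMP difference was -0.82 for *Nuf2* (0.04 in GMPs and -0.77 in MPPs), -0.42 for *Bub1* (0.04 and -0.38), -0.25 for *Birc5* (0.03 and -0.22), -0.21 for *Cenpe* (0.17 and -0.04), -0.16 for *Ndc80* (0.05 and -0.10), -0.13 for *Cenpa* (0.05 and -0.08) and -0.12 for *Ncapg* (0.02 and -0.10). *Tpx2* was the reverse, with 0.31 (-0.19 in GMPs and 0.12 in MPPs). The MPP sign of *Cenpe*, *Ndc80* and *Cenpa* turned after quantile normalization, and that of *Cenpe* and *Cenpa* also after lowess centring.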

How the results depend on the processing

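With 1 array per group there is no replicate error, and no array could be left out. No paired analysis was made, because each group had 1 array and the labels carry no replicate number. The shared marrow pairs the populations within a genotype. A fit over both genotypes would take the MPP difference minus the GMP difference as its only error, and it was not made. At 1.5-fold, the counts of members that differed were 1 for genotype in GMPs, 5 for genotype in MPPs, 5 between the WT populations and 10 between the *Bcl11a*-/- populations, all with lower signal in *Bcl11a*-/- cells or in MPPs. A new quantile normalization gave medians of -0.17 for genotype in MPPs, 0.0069 between the WT populations and -0.0667 between the *Bcl11a*-/- populations, and a count over 2-fold of 1 between the latter. Median centring gave -0.35 and 4 for the *Bcl11a*-/- populations. The median genotype difference in GMPs, and that of the MPP difference minus the GMP difference, kept their sign and moved by under 0.1 in every alternative. No member passed 2-fold for genotype in any of the 234 values recomputed per population. The floor, the minimum signal and the brightest probe set could change only *Top2a*, the only member with several probe sets of its own. Signs differed from the deposited data in 2 of these values in GMPs and 17 in MPPs, all after a centring or the quantile normalization. By member, the sign turned for 1 of 39 in GMPs and for 12 of 39 in MPPs. The cause of these shifts was not tested.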

Other observations

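The genomic span of a gene went with its MPP genotype difference among bright protein-coding genes, a Spearman rho of 0.28 over 3053 genes that share the same 2 arrays, longer genes having the higher difference. In GMPs the same value was -0.00. Among the 39 members it was 0.10 in MPPs and -0.12 in GMPs. The members had a median span of 27.2 kb, and the bright protein-coding genes 19.7 kb. These are descriptions across genes, which are not independent replicates.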
